A study of Mus musculus with 6 samples.

Results

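The collagen chain genes were taken as every gene row whose symbol consists of COL, a number, A and a second number, and 44 of the 23282 rows met this rule. Of these, 11 encode fibrillar chains, 9 encode chains of collagen networks and 24 encode other chains. Their RNA was compared between control and JAG1-overexpressing Ink4a-/- mouse astrocytes. JAG1 is a cell surface ligand of NOTCH receptors whose intracellular part can be released into the cell. All 6 libraries came from cultured astrocytes labelled as an Ink4a -/- murine line from brain, which lack the Ink4a/Arf tumor suppressor locus and were grown in DMEM with fetal bovine serum. The 3 control libraries (labelled Con, genotype WT) came from cells transfected with the empty plasmid pcDNA3.1-puro, and the 3 JAG1 libraries (labelled JAG1 overexpression) came from cells transfected with pcDNA3.1-JAG1-puro. Since the controls carry the same deletion, WT was read as without JAG1. It is not given in the sources used here whether each library stands for its own transfection, so the p-values measure the spread between these libraries, which may be technical.

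Collagens are secreted proteins in which alpha chains wind into a triple helix, and each gene encodes a single kind of chain. Fibrillar collagens assemble side by side into the banded fibers of connective tissue. Network collagens form sheets, type IV in basement membranes and type VIII in hexagonal lattices. The other collagens decorate fibrils, anchor basement membranes, form beaded filaments or span the cell membrane. In the brain, collagens are mostly deposited around vessels and in the meninges, and the matrix between neurons and glia holds little fibrillar collagen. Several types need chains from different genes in the same molecule, so the ratio of partner chains is of interest beside the level of each.

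QuantSeq libraries cover only the 3' end of polyadenylated RNA, so that the read count of a gene does not grow with transcript length. On this ground levels of different chains are set side by side. Differences between genes in annotated 3' ends or in mapping can also change read counts, and these were not checked. Read counts summed to between 14341634 and 20489062 per library. Levels are given as CPM, reads scaled to a common library size after edgeR's TMM normalization, and 3 reads, taken as the limit of detection, equalled 0.148 to 0.206 CPM. This limit covers counting error only. Jag1 itself had 8.99, 10.8 and 11.2 CPM in control and 15.2, 13.6 and 13.8 CPM in JAG1 libraries. All JAG1 libraries lay above the controls (log2 fold change 0.46, adjusted p = 0.00446). Reads from the plasmid and from the cells' own gene cannot be told apart. The 3' end of the plasmid transcript may differ from that of the gene, and whether its reads are counted here is not given. The value is therefore no measure of the degree of overexpression. Here and below, log2 fold changes are JAG1 minus control from edgeR's quasi-likelihood test over 11712 tested genes with Benjamini-Hochberg adjustment, and a gene is said to rise or fall where the adjusted p is under 0.05. In this comparison 55.1% of all tested genes passed that threshold, 27.4% higher and 27.7% lower, so a change of a single gene is common in these libraries.

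The cells were checked against markers of the labelled type and of others the culture could hold. Gfap and Aqp4, which define mature astrocytes, had no reads in any library. Of 12 astrocyte markers 7 had enough reads to be tested and 6 of these fell, and the summed level of the list, most of it Vim, was 3267 to 3751 CPM in control and 3343 to 3408 CPM in JAG1 libraries. Fibroblast and meningeal markers, where Lum and Thy1 had no reads, summed to 154 to 166 CPM in control and 128 to 145 CPM in JAG1 libraries, with 4 of 6 tested markers lower. Of the markers called lower, S100b, Aldoc, Dcn, Fbln1 and the microglial Tmem119 reached the minimum count in every library only in control, so that their falls were favored by the filter. Cx3cr1, also microglial, was called higher and reached the minimum in every library only in the JAG1 group. Among markers that reached the minimum in every library of both groups, 4 of 5 astrocyte and 2 of 4 fibroblast and meningeal markers fell. Of all tested genes 27.7% were called lower. Mural markers, where Rgs5, Cspg4 and Kcnj8 had no reads, summed to 385 to 398 CPM in control and 62.7 to 70.6 CPM in JAG1 libraries, and both tested markers, Acta2 and Pdgfrb, fell. Endothelial markers stayed at or below 0.322 CPM, microglial markers at or below 3.97 CPM and oligodendrocyte lineage markers at or below 1.19 CPM. Neuronal markers, nearly all Tubb3, summed to 73.0 to 82.1 CPM in control and 7.84 to 8.81 CPM in JAG1 libraries. The part of these shifts in the values of the collagen genes was not tested, and in bulk RNA fewer cells of a type and less RNA per cell cannot be told apart.

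In JAG1 libraries a larger share of collagen RNA came from network chains and a smaller share from fibrillar chains than in control. The most abundant chains changed places: the order Col1a1, Col3a1, Col4a1, Col16a1 in control became Col4a1, Col8a1, Col1a1, Col16a1 in JAG1 libraries. Collagen reads made up 0.127% ± 0.00444 (SD, n = 3) of all reads in control and 0.101% ± 0.00625 (SD, n = 3) in JAG1 libraries. The 11 fibrillar chains summed to 651, 668 and 710 CPM in control and to 432, 432 and 373 CPM in JAG1 libraries. The 9 network chains summed to 347, 351 and 361 CPM in control and to 481, 466 and 442 CPM in JAG1 libraries. The 24 other chains summed to 256, 239 and 234 CPM in control and to 133, 134 and 121 CPM in JAG1 libraries. For each class the libraries of the groups did not overlap, with fibrillar and other chains lower and network chains higher. As a share of collagen reads, fibrillar chains went from 53.1% ± 1.24 to 41.0% ± 1.01, network chains from 27.7% ± 0.119 to 46.1% ± 1.00 and other chains from 19.1% ± 1.24 to 12.9% ± 0.130 (SD, n = 3 each). These sums are descriptions without a test.

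**Figure D1:**
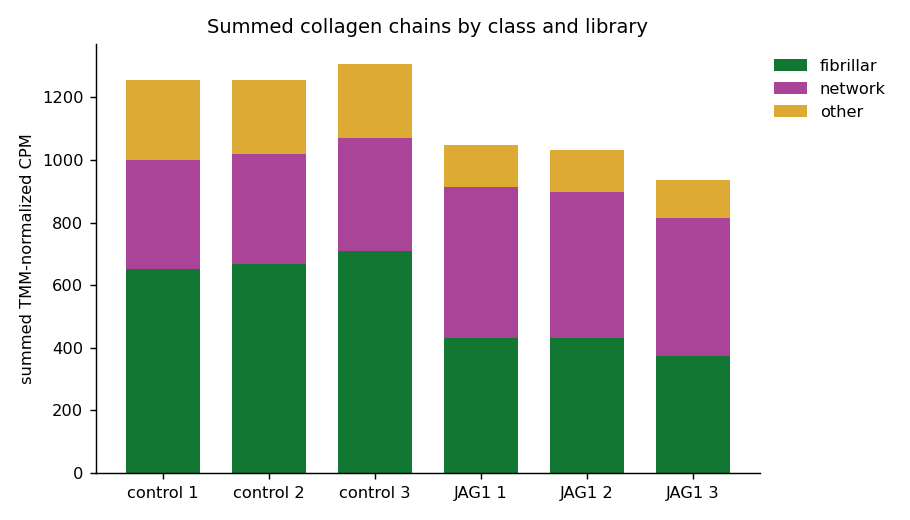
Stacked bars show the summed TMM-normalized CPM of fibrillar (green), network (purple) and other (yellow) collagen chains in each of the 6 libraries, starting at 0. The network segment is 347 to 361 CPM in control and 442 to 481 CPM in JAG1 libraries, and the mean height of the whole bar is 1273 CPM in control and 1005 CPM in JAG1 libraries.

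A few abundant chains carried most of these sums. Col8a1 alone went from 6.44% to 17.4% of collagen reads, and the 6 chains of type IV, which are the rest of the network class apart from 2 chains near 0, summed to 271 ± 5.90 CPM in control and 288 ± 15.5 CPM in JAG1 libraries. Without Col1a1 and Col3a1 the fibrillar sum was 241 ± 4.28 CPM in control and 187 ± 16.6 CPM in JAG1 libraries. Without Col16a1 the sum of the other chains was 72.5 ± 1.77 CPM in control and 54.3 ± 2.58 CPM in JAG1 libraries (SD, n = 3 each).

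Of the 44 chains, 19 had enough reads to be tested, and each of these reached the minimum in all libraries of both groups. Among them 7 rose and 10 fell, or 89.5% called against 55.1% of all tested genes, and 3 rose and 7 fell at least 2-fold, or 52.6% against 13.9% (5.46% higher and 8.49% lower). All tested genes were not matched to the chains in abundance, and the chains were chosen with earlier results of these data known. The median log2 fold change of the 19 chains was -0.48, against 0.00386 over all tested genes. The libraries of the groups did not overlap for 7 chains with JAG1 above and 11 with JAG1 below, where 62.0% of all tested genes did not overlap, 31.1% with JAG1 above and 30.9% with JAG1 below. By class, 2 fibrillar chains rose and 3 fell of 7 tested, 3 network chains rose and 2 fell of 5, and 2 other chains rose and 5 fell of 7. The tested chains lie on 11 chromosomes. None lies on chromosome 15 or 19, whose genes were shifted as a whole with median log2 fold changes of -0.53 and 0.61, and for the remaining autosomes and the X the median ran from -0.12 to 0.05.

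**Figure D2:**
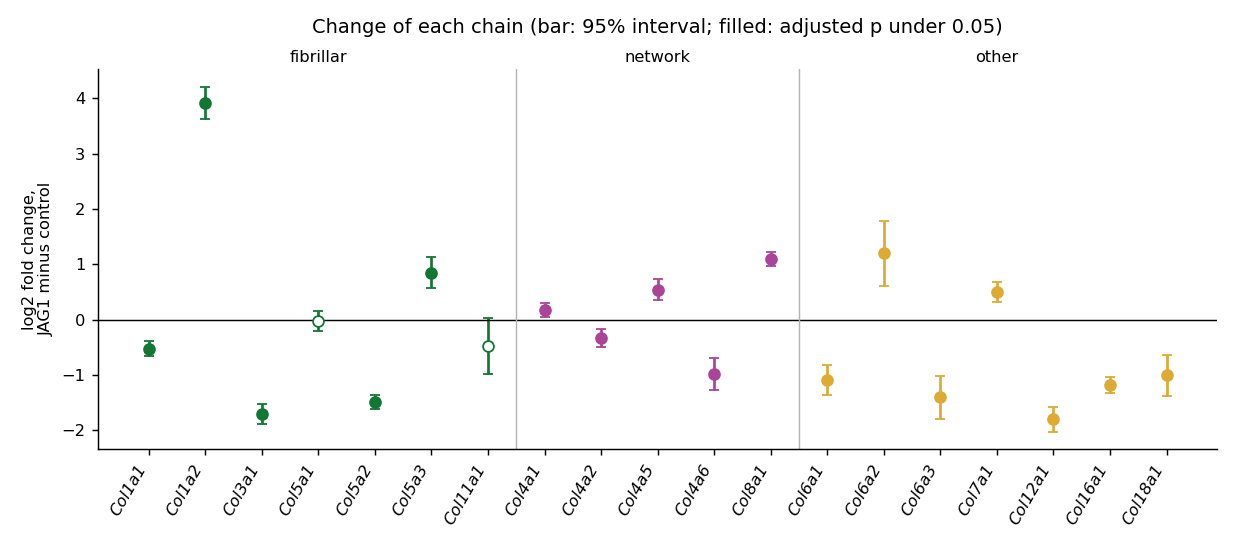
Points show the log2 fold change (JAG1 minus control) of the 19 tested collagen chains with its 95% interval, filled where the adjusted p is under 0.05, and vertical lines part the fibrillar, network and other chains. Col1a2 stands highest at 3.92, Col12a1 and Col3a1 lowest at -1.81 and -1.70, and Col5a1 and Col11a1 are open.

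Type I collagen, the main collagen of skin, bone and scar, joins alpha-1 chains from Col1a1 with an alpha-2 chain from Col1a2, and these chains changed in opposite directions. Col1a2 (chr6:4505618-4541543; all positions are GRCm38.p6, RefSeq) had 3.46, 3.81 and 2.77 CPM in control and 53.2, 55.3 and 43.7 CPM in JAG1 libraries. Every JAG1 library stood far above every control library, by 15.1-fold on average, the largest difference of the tested chains (log2 fold change 3.92, standard error 0.13, adjusted p = 1.42e-09). Col1a1 (chr11:94936224-94953042) had 233, 237 and 238 CPM in control and 172, 172 and 147 CPM in JAG1 libraries. It fell in all JAG1 libraries, most in replicate 3, 1.44-fold on average (log2 fold change -0.53, standard error 0.06, adjusted p = 3.5e-05). Control libraries thus held 67.5, 62.1 and 85.9 reads of Col1a1 for each read of Col1a2, and JAG1 libraries held 3.23, 3.11 and 3.37. The ratio differed 22.0-fold between the groups, and the control ratios were also the more spread. In control, Col1a2 made up 0.264% of collagen reads and ranked 17 of 19, and in JAG1 libraries it made up 5.04% and ranked 8. The tested genes on either side of Col1a2, looked up after its value was seen, were Bet1 with a log2 fold change of 0.27 (adjusted p = 0.116) and Casd1 with -0.40 (adjusted p = 0.00099), 419 kb and 59.4 kb away.

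Col3a1 and Col5a2, chains of fibrils that also hold type I collagen, fell together. Col3a1 (chr1:45311538-45349706), the chain of type III collagen, which is common in vessels and soft tissue, had 181, 191 and 226 CPM in control and 63.6, 62.0 and 58.0 CPM in JAG1 libraries. Control replicate 3 was the highest, and the groups lay far apart (log2 fold change -1.70, standard error 0.08, adjusted p = 2.23e-08). Col5a2 (chr1:45374331-45503282), which encodes the alpha-2 chain of type V collagen, had 152, 161 and 162 CPM in control and 58.0, 56.8 and 53.8 CPM in JAG1 libraries. It fell 2.82-fold (log2 fold change -1.49, standard error 0.06, adjusted p = 3.66e-09) with little spread in either group. These 2 genes are neighbors on chromosome 1, read toward each other with 24.6 kb between them. Of the mural markers, Acta2 and Pdgfrb moved the same way. The list, nearly all Acta2 and Pdgfrb, summed to 385 to 398 CPM in control and 62.7 to 70.6 CPM in JAG1 libraries. Rgs5, Cspg4 and Kcnj8 of that list had no reads in any library. Whether mural cells had a part in the fall of the fibrillar chains was not tested. The next tested genes outside Col3a1 and Col5a2, also looked up afterwards, were Gulp1 with a log2 fold change of -0.47 (adjusted p = 0.0333) and Wdr75 with 0.11 (adjusted p = 0.14).

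The other type V chains took other courses than Col5a2. Type V collagen sits inside type I fibrils and limits their width, and its usual form joins alpha-1 and alpha-2 chains. Col5a1 (chr2:27886381-28039510), the alpha-1 chain, had 74.4, 69.8 and 72.9 CPM in control and 75.5, 75.7 and 61.2 CPM in JAG1 libraries. The groups overlapped, and the log2 fold change was -0.03 with a 95% interval from -0.21 to 0.15 (adjusted p = 0.764). The ratio of Col5a1 to Col5a2 was 0.488, 0.434 and 0.450 in control and 1.30, 1.33 and 1.14 in JAG1 libraries, so that the more abundant chain of the pair was Col5a2 in control and Col5a1 in JAG1 libraries. Col5a3 (chr9:20770050-20815117), a rarer type V chain, had 4.25, 4.35 and 4.92 CPM in control and 8.32, 8.19 and 7.71 CPM in JAG1 libraries. It rose 1.79-fold (log2 fold change 0.84, standard error 0.13, adjusted p = 0.000186). Col11a1 (chr3:114030479-114220756), a cartilage chain related to those of type V, had 1.93, 1.88 and 2.25 CPM in control and 1.45, 1.24 and 1.64 CPM in JAG1 libraries. All JAG1 libraries lay below all controls, but the log2 fold change of -0.48 (95% interval -0.99 to 0.03, adjusted p = 0.102) did not pass the threshold.

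**Figure D3:**
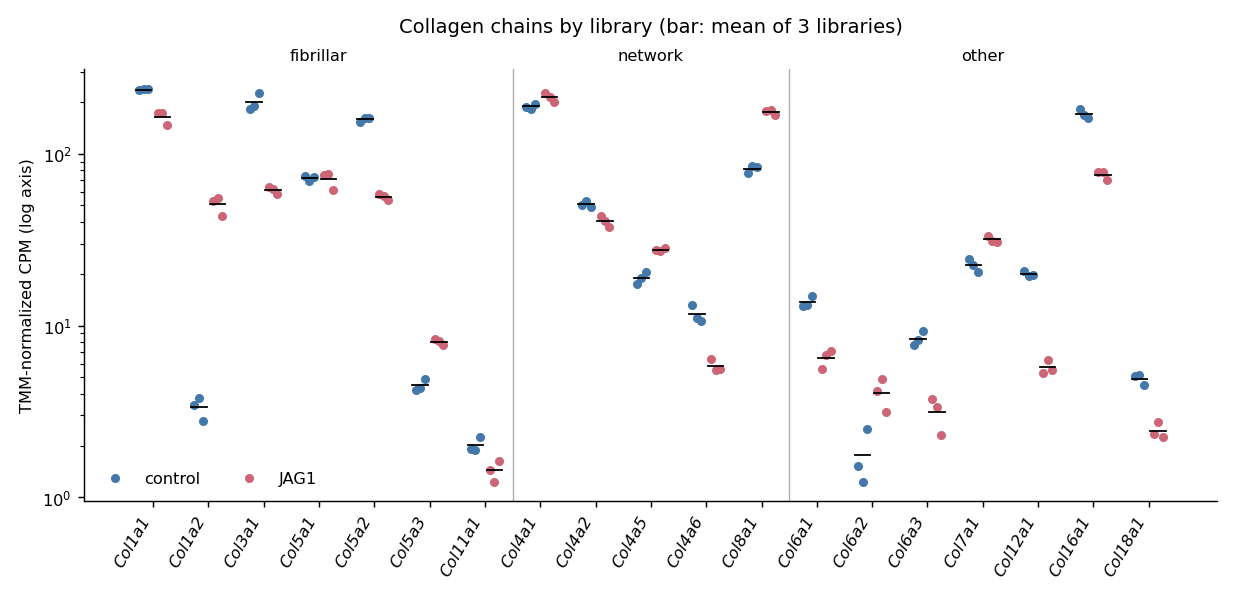
Each point is the level of a tested collagen chain in 1 library (TMM-normalized CPM, log axis), blue for control and red for JAG1, with a bar at the mean of 3 libraries. The red points of Col1a2 lie at 43.7 to 55.3 CPM above blue points at 2.77 to 3.81 CPM, and the groups overlap only for Col5a1.

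Promoter stretches are shown for Col1a2, Col3a1 and Col8a1, as the chain with the largest rise, the abundant fibrillar chain with the largest fall and the network chain with the largest rise, to set beside their values. Each is the longest part of the 250 bases before the RefSeq start (GRCm38.p6) that no exon of GENCODE M21 covers, written 5' to 3' on the strand of the gene. Capitals mark GTCTG or its reverse complement CAGAC, the core letters of the SMAD3 binding element, since SMAD3 is a transcription factor that acts on many matrix genes.
Col1a2, chr6:4505370-4505492, plus strand: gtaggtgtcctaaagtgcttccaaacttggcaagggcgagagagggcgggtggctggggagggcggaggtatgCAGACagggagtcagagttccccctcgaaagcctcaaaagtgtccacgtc
Col3a1, chr1:45311288-45311537, plus strand: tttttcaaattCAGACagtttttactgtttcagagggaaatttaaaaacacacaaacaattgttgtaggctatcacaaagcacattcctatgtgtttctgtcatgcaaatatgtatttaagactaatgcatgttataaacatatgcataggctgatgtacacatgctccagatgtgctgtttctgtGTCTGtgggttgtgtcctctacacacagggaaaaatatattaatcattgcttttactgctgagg
Col8a1, chr16:57754738-57754987, minus strand: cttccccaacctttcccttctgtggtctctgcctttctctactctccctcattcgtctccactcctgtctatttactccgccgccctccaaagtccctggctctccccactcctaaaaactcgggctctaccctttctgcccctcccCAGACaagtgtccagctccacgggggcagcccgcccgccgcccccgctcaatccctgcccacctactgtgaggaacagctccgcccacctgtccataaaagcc
The stretches of the rising Col1a2 and Col8a1 hold these letters once each and that of the falling Col3a1 holds them 2 times. Searched on both strands, they were present in 42.2% of the 32851 windows of 250 bases before annotated mouse starts, and in a window of 10 of the 16 tested chains that have one. These 16 chains have 18 windows in all, and a chain was counted if any of its windows held the letters. Here and below, counts of chains are thus not the same measure as shares of single windows. CCAAT or its reverse complement ATTGG was present in 33.9% of all windows and 9 of 16 chains, GGGCGG or CCGCCC in 32.7% and 12 of 16, and TATAAA or TTTATA in 12.4% and in Col3a1 alone of the 16. Such matches are descriptions of short letters and not sites of binding, and the windows that hold GTCTG belong to chains that rose, fell and passed no threshold. Col1a1, Col5a2 and Col12a1 were not searched.

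Type IV collagen, the sheet of basement membranes, is built from 6 chains in set combinations, and within each tested pair 1 chain rose and the other fell. Col4a1 (chr8:11198423-11312889) was the most abundant network chain, with 188, 182 and 196 CPM in control and 226, 214 and 201 CPM in JAG1 libraries. The groups did not overlap by a narrow margin, and this was the smallest called rise (log2 fold change 0.18, standard error 0.06, adjusted p = 0.0196). It lost the threshold without control replicate 2 (0.16, adjusted p = 0.0935) and without JAG1 replicate 1 (0.14, adjusted p = 0.0922). Col4a2 (chr8:11312805-11449287), its partner, had 50.2, 53.3 and 49.2 CPM in control and 43.4, 40.5 and 37.4 CPM in JAG1 libraries. It fell in all of them (log2 fold change -0.33, standard error 0.07, adjusted p = 0.00288). The protein molecule holds Col4a1 and Col4a2 chains at 2 to 1. Their ratio of RNA reads, which is another measure, was 3.75, 3.42 and 3.98 in control and 5.21, 5.28 and 5.39 in JAG1 libraries. These 2 genes start head to head and their annotations share 85 bases. The shared bases lie at the 5' starts and not at the 3' ends that these libraries cover. Whether the authors' counting used strand is not given in the sources used here. Reads in the shared bases, if any, and those of antisense transcripts therefore cannot be told apart.

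The X-linked pair showed the same contrast at lower levels. Col4a5 (chrX:141475370-141689236), a chain of kidney basement membranes, had 17.5, 18.8 and 20.5 CPM in control and 27.5, 27.1 and 28.1 CPM in JAG1 libraries. It rose 1.46-fold, and the JAG1 libraries lay close together (log2 fold change 0.54, standard error 0.08, adjusted p = 0.000209). Col4a6 (chrX:141165403-141474095), which pairs with Col4a5 in smooth muscle and skin, had 13.2, 11.0 and 10.7 CPM in control and 6.43, 5.50 and 5.59 CPM in JAG1 libraries. It fell 1.98-fold (log2 fold change -0.99, standard error 0.13, adjusted p = 6.14e-05). The ratio of Col4a5 to Col4a6 was 1.33, 1.71 and 1.92 in control and 4.28, 4.93 and 5.03 in JAG1 libraries. Both genes start from 1 stretch of the X chromosome, 1.28 kb apart and read away from each other. Uncovered parts before the start that the promoter table gives, which lies in the first bases of each gene, are shown because these neighbors changed in opposite directions, with CCAAT, a letter group common in promoters, in capitals.
Col4a5, chrX:141475169-141475384, plus strand: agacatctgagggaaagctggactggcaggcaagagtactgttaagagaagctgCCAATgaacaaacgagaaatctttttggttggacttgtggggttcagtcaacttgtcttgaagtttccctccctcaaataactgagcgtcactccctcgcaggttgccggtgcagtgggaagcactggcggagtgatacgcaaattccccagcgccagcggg
Col4a6, chrX:141474077-141474326, minus strand: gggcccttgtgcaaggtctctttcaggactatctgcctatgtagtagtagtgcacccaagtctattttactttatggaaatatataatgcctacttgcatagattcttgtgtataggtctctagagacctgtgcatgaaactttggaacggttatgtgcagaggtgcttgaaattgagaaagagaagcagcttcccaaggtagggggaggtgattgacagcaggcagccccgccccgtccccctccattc
The Col4a5 stretch holds CCAAT once, the Col4a6 stretch holds none, and GTCTG is in neither. The remaining type IV chains, Col4a3 and Col4a4, had at most 17 reads in a library.

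Type VIII collagen forms hexagonal lattices below vessel and corneal endothelium, and its chain Col8a1 showed the largest rise of the network class. Col8a1 (chr16:57624256-57754737) had 77.3, 84.7 and 83.8 CPM in control and 177, 178 and 169 CPM in JAG1 libraries. All JAG1 libraries stood at about the same level, 2.13-fold above control (log2 fold change 1.09, standard error 0.06, adjusted p = 3.74e-08). By abundance it ranked 6 of 19 in control and 2 in JAG1 libraries. Its partner Col8a2 had at most 6 reads in a library, and the related Col10a1 of growth plate cartilage at most 7.

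The beaded filament collagen, type VI, which surrounds many cells and binds them to the matrix, joins chains from Col6a1, Col6a2 and Col6a3, and these did not change alike. Col6a1 (chr10:76708792-76726044) had 13.1, 13.3 and 14.8 CPM in control and 5.58, 6.74 and 7.11 CPM in JAG1 libraries, and it fell (log2 fold change -1.09, standard error 0.12, adjusted p = 1.75e-05). Col6a3 (chr1:90766860-90844001) had 7.70, 8.21 and 9.26 CPM in control and 3.74, 3.37 and 2.31 CPM in JAG1 libraries, and it fell as well (log2 fold change -1.41, standard error 0.18, adjusted p = 4.27e-05). Both were lower in every JAG1 library. Col6a2 (chr10:76595756-76623630) had 1.53, 1.23 and 2.51 CPM in control and 4.14, 4.89 and 3.16 CPM in JAG1 libraries. It rose 2.30-fold (log2 fold change 1.20, standard error 0.27, adjusted p = 0.00276), with replicate 3 of each group nearest to the other group. The ratio of Col6a1 to Col6a2 was 8.55, 10.7 and 5.90 in control and 1.35, 1.38 and 2.25 in JAG1 libraries. Col6a1 and Col6a2 lie 85.2 kb apart on chromosome 10 and changed in opposite directions, while Col6a3 lies on another chromosome. The ratio of Col6a1 to Col6a3 was 1.70, 1.61 and 1.60 in control and 1.49, 2.0 and 3.08 in JAG1 libraries, and the groups overlapped.

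Among the remaining chains 1 rose and 3 fell. Col7a1 (chr9:108953586-108984875), the chain of the fibrils that anchor skin to its basement membrane, had 24.3, 22.6 and 20.6 CPM in control and 33.4, 31.0 and 30.7 CPM in JAG1 libraries. All JAG1 libraries were above control (log2 fold change 0.49, standard error 0.08, adjusted p = 0.000454). Col12a1 (chr9:79598987-79721141), which lies on the surface of type I fibrils, had 20.6, 19.4 and 19.6 CPM in control and 5.28, 6.33 and 5.53 CPM in JAG1 libraries. It fell 3.50-fold, the largest fall of the tested chains (log2 fold change -1.81, standard error 0.10, adjusted p = 8.33e-08). Col16a1 (chr4:130047817-130099277), a fibril-associated chain of the same family, had 182, 168 and 161 CPM in control and 78.1, 77.9 and 70.0 CPM in JAG1 libraries. It was among the 4 most abundant chains in both groups although it fell 2.26-fold (log2 fold change -1.18, standard error 0.07, adjusted p = 6.98e-08). Col18a1 (chr10:77052178-77166530), a basement membrane chain whose end is released as endostatin, had 5.09, 5.15 and 4.50 CPM in control and 2.34, 2.75 and 2.25 CPM in JAG1 libraries. It fell 2.01-fold (log2 fold change -1.01, standard error 0.17, adjusted p = 0.000344), with no overlap of the groups.

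Partner chains can be compared within a library without any scaling between libraries. Of 10 listed partner pairs 6 had both chains tested, and for 5 of them the ratios of the groups did not overlap. The log2 difference of the ratio was -4.46 for Col1a1 to Col1a2, -2.34 for Col6a1 to Col6a2, 1.53 for Col4a5 to Col4a6, 1.46 for Col5a1 to Col5a2 and 0.51 for Col4a1 to Col4a2. For each of these 5 the exact two-sided permutation test over the libraries gave p = 0.1, the smallest that 3 against 3 libraries allow, or 0.12 when adjusted over the 6 pairs, so the design could not reach 0.05. For Col6a1 to Col6a3 the log2 difference was 0.36 and the exact permutation p was 0.4.

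**Figure D4:**
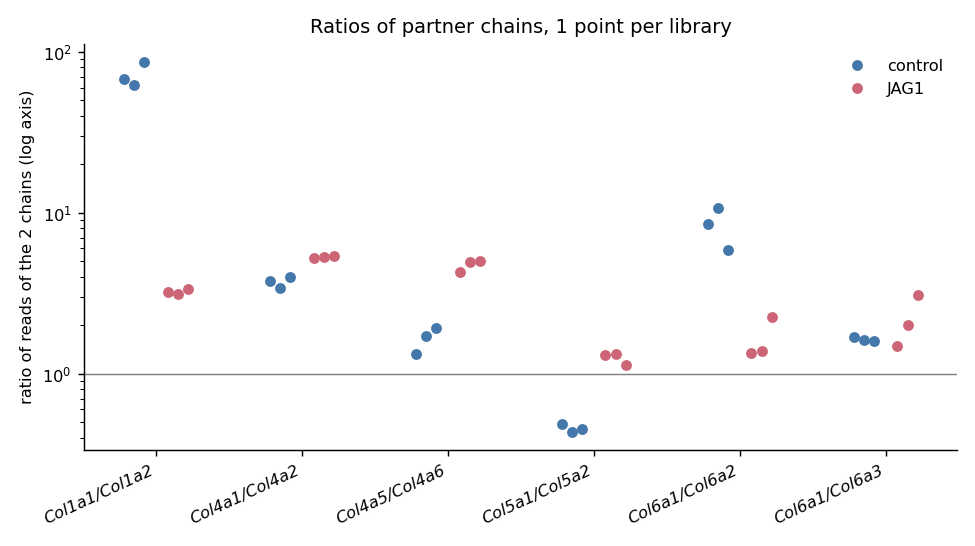
Points show the read ratio of 6 pairs of partner chains in each library (log axis), blue for control and red for JAG1, with a line at a ratio of 1. The groups are parted for all pairs but Col6a1 to Col6a3, and Col1a1 to Col1a2 lies at 62.1 to 85.9 in control and 3.11 to 3.37 in JAG1 libraries.

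The other 25 chains had too few reads to be tested and together made up 230 reads, or 0.184% of collagen reads. No read was counted in any library for 9 of them: Col2a1 of cartilage and Col24a1 among the fibrillar chains, Col6a5 and Col6a6 of type VI, Col9a1, Col9a2 and Col19a1 of the fibril-associated chains, the membrane chain Col13a1, and Col26a1. A further 5 had at most 3 reads in a library: Col27a1, Col14a1, Col15a1, Col23a1 and Col28a1. The 11 above that were Col4a3, Col4a4, Col8a2, Col10a1, Col11a2, Col6a4, Col9a3, Col17a1, Col20a1, Col22a1 and Col25a1, with at most 19 reads in a library. Col9a3, a chain of cartilage fibrils, had 19, 7 and 14 reads in control and 3, 2 and 1 in JAG1 libraries, and it was the only untested chain called when no filter on low counts was applied (log2 fold change -2.48, adjusted p = 0.00263). For these chains a difference between the groups was not detectable at this depth, Col9a3 without the filter excepted.

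Collagen chains are hydroxylated, folded, cut, secreted, cross-linked and later degraded by a known set of proteins, and a list of 70 such genes was read from the same fit. Of the list 51 were tested, of which 10 rose and 24 fell, or 66.7% called against 55.1% of all tested genes, and 1 rose and 15 fell at least 2-fold, or 31.4% against 13.9% (5.46% higher and 8.49% lower). The median log2 fold change was -0.13. These counts lean on the filter: 8 of the 51 did not reach the minimum in every library. Of these P3h2, Adamts2, Dcn, Fmod, Mmp2 and Mmp9 did so in all control libraries but in at most 1 JAG1 library, and P3h3 in the JAG1 libraries alone. These genes thus passed the filter only through the group where they are high. Fkbp14, the other of the 8, was not called. Among the 43 genes that reached it in every library of both groups, 9 rose and 18 fell, and 0 rose and 9 fell at least 2-fold. Beside these counts stand 27.4% higher and 27.7% lower of all tested genes, and 5.46% and 8.49% at least 2-fold. The counts by role below are to be read against the same 27.4% higher and 27.7% lower of all tested genes, and most roles hold too few genes for a share. Genes named here are the most abundant tested gene of each role and all called genes that changed at least 2-fold, and Plod2, Adamts14, Loxl1, Loxl3, Loxl4 and Timp1 were added after their values were seen, for comparison with a relative.

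Inside the cell, the prolyl hydroxylase group, whose enzymes stabilize the triple helix, had 3 genes higher and 4 lower of 10. P4hb, the abundant shared subunit, was 612 ± 16.4 CPM in control and 523 ± 23.7 CPM in JAG1 libraries (log2 fold change -0.23, adjusted p = 0.00287). P3h2, a prolyl 3-hydroxylase known to act on type IV collagen, was 3.60 ± 0.477 CPM in control and 0.221 ± 0.178 CPM in JAG1 libraries (-4.02, adjusted p = 4.25e-06). Without JAG1 replicate 3, which held 7 reads against 2 in each of the other JAG1 libraries, the log2 fold change was -4.88. Without JAG1 replicate 1 that of P3h2 was -3.60. Its relative P3h3 went the other way, from 0.413 ± 0.0415 to 1.43 ± 0.180 CPM (1.78, adjusted p = 0.000576). P3h2 reached the minimum count in every library only in control and P3h3 only in the JAG1 group, so the filter favored both calls. Among the 8 prolyl hydroxylase genes that reached it in every library, 2 rose and 3 fell, and 0 were called at least 2-fold changed. Of 4 tested lysyl hydroxylases and glycosyltransferases 1 rose and 1 fell. Plod1, which hydroxylates lysines in the helix, fell from 96.6 ± 8.93 to 28.9 ± 2.21 CPM (-1.74, adjusted p = 2.4e-08), and Plod2, which acts on the ends of the chains, rose by a log2 fold change of 0.68 (adjusted p = 0.000216). Colgalt1, which adds galactose to hydroxylysine, was at 96.6 ± 3.84 and 93.8 ± 0.514 CPM (95% interval of the log2 fold change -0.16 to 0.08, adjusted p = 0.546). All values are mean ± SD with n = 3.

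Of 9 tested folding and export genes 1 rose and 2 fell. Serpinh1, the collagen chaperone HSP47, had 1389, 1304 and 1288 CPM in control and 1358, 1238 and 1328 CPM in JAG1 libraries. The groups overlapped, with a 95% interval of the log2 fold change from -0.14 to 0.10 (adjusted p = 0.767). Fkbp7, a peptidyl-prolyl isomerase of the endoplasmic reticulum, fell from 8.49 ± 0.844 to 2.04 ± 0.428 CPM (SD, n = 3; log2 fold change -2.04, adjusted p = 2.17e-06). Of 5 tested genes for propeptide cleavage 2 rose and 1 fell. The one that fell was Adamts2, the N-proteinase of fibrillar procollagens, which had 19.5, 16.8 and 20.5 CPM in control and 0.498, 0.275 and 0.729 CPM in JAG1 libraries. This 36.8-fold difference (log2 fold change -5.20, standard error 0.21, adjusted p = 4.58e-09) rests on 4 to 12 reads in the JAG1 libraries. Adamts2 reached the minimum count in every library only in control, so the filter favored its fall. Its relative Adamts14 rose by a log2 fold change of 0.67 (adjusted p = 0.00366), and Pcolce, which enhances C-propeptide cleavage, was at 136 ± 1.85 and 132 ± 5.23 CPM (95% interval -0.15 to 0.08, adjusted p = 0.601).

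The lysyl oxidases, which cross-link collagen outside the cell, were split. Lox had 470, 454 and 486 CPM in control and 47.9, 49.5 and 51.9 CPM in JAG1 libraries. It fell 9.44-fold with little spread in either group (log2 fold change -3.24, standard error 0.06, adjusted p = 2.27e-11). Loxl2, which also cross-links type IV collagen, fell from 109 ± 4.12 to 29.7 ± 2.68 CPM (-1.87, adjusted p = 5.2e-09). Loxl1 and Loxl3 rose by log2 fold changes of 0.31 (adjusted p = 0.000531) and 0.40 (adjusted p = 0.000296), and Loxl4 had 0.13 (95% interval -0.05 to 0.31, adjusted p = 0.21). Loxl4 lies on chromosome 19, and relative to the median of that chromosome its value was -0.48. In control Lox was the most abundant of the 5, and in JAG1 libraries Loxl3 was, at 123 ± 5.61 CPM.

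All 8 tested genes of the fibril organization group, whose proteins bind fibrils and steer their growth, fell, and the 6 that reached the minimum count in every library are those other than Dcn and Fmod. Sparc, a collagen-binding glycoprotein, was the most abundant at 1429 ± 77.7 CPM in control and 1083 ± 47.9 CPM in JAG1 libraries (log2 fold change -0.40, adjusted p = 0.000103). The small leucine-rich proteoglycans fell further: Prelp from 19.0 ± 1.94 to 4.61 ± 1.07 CPM (-2.06, adjusted p = 5.59e-07) and Bgn from 7.12 ± 0.665 to 2.58 ± 0.370 CPM (-1.44, adjusted p = 1.78e-05). Dcn, Ogn and Fmod were lower still in JAG1 libraries, at 0.264 ± 0.211, 0.794 ± 0.366 and 0.178 ± 0.109 CPM, with log2 fold changes of -3.09, -1.90 and -2.77 (adjusted p at most 0.000449). Without JAG1 replicate 2 that of Dcn was -3.71, and without JAG1 replicate 3 it was -2.64. Dcn and Ogn also stand in the list of fibroblast and meningeal markers, and the summed level of that list was lower in JAG1 libraries as given above. In that list Foxc1 fell from a mean of 63.5 to 42.4 CPM. Fbln2, at 87.5 CPM in control and 90.3 CPM in JAG1 libraries, and Pdgfra, at 3.15 and 3.96 CPM, were not called.

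Collagen is bound at the cell surface by receptors and cleared by proteases. Of 3 tested collagen receptors 2 fell, and Ddr2, a receptor kinase for fibrillar collagen, went from 114 ± 6.66 to 42.6 ± 2.10 CPM (log2 fold change -1.42, adjusted p = 1.9e-08). Itgb1, the beta subunit of collagen-binding integrins, was at 288 ± 10.1 and 276 ± 7.67 CPM (95% interval -0.17 to 0.05, adjusted p = 0.305). Of 7 tested degradation genes 1 rose and 4 fell. Among the 5 that reached the minimum count in every library, which leaves out Mmp2 and Mmp9, 1 rose and 2 fell. Mmp14, a membrane-bound collagenase, fell from 445 ± 36.5 to 167 ± 12.01 CPM (-1.41, adjusted p = 2.86e-08), and Mmp2, a gelatinase that it activates, from 4.11 ± 0.794 to 0.537 ± 0.136 CPM (-2.94, adjusted p = 4.47e-06). Mmp9, the other gelatinase, had 57, 56 and 58 reads in control and 2, 0 and 1 reads in JAG1 libraries and was at least 16.5-fold lower, with 3 reads per library as the floor. Of the inhibitors of these enzymes, Timp2 fell (-0.48, adjusted p = 4.6e-06) and Timp1 rose (0.59, adjusted p = 1.42e-05).

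**Figure D5:**
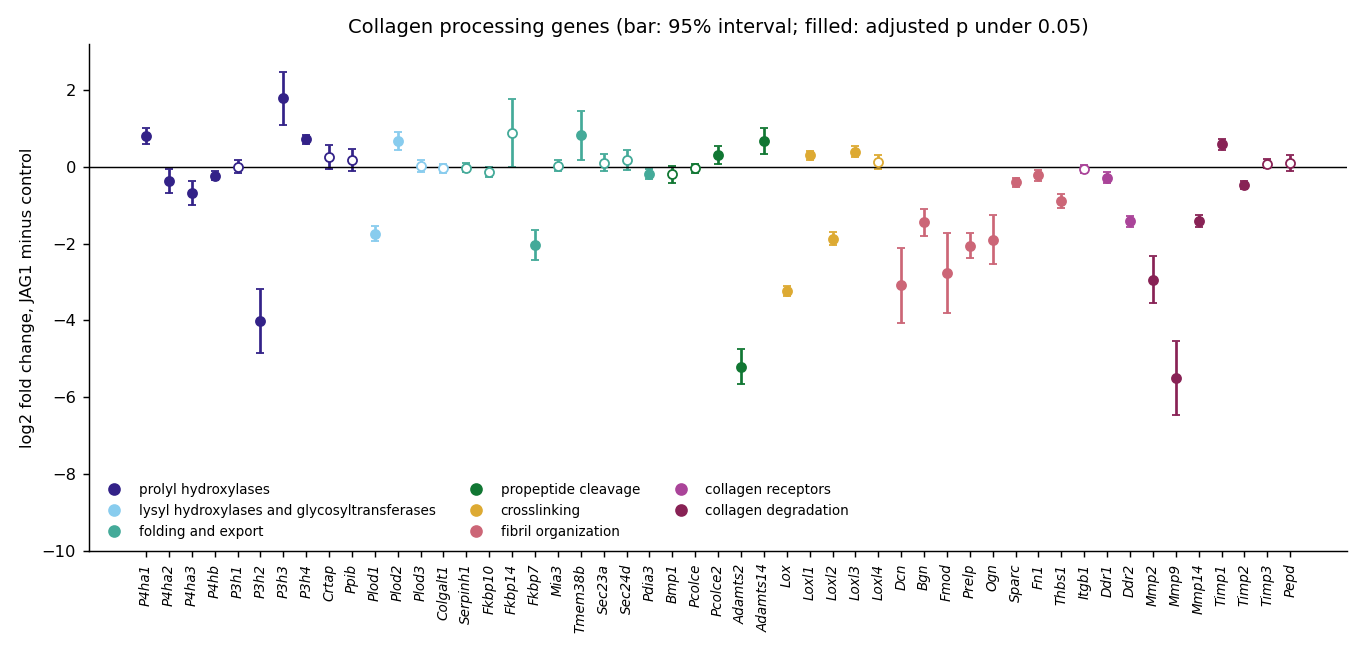
Points show the log2 fold change (JAG1 minus control) of the 51 tested collagen processing genes with its 95% interval, colored by role and filled where the adjusted p is under 0.05. All 8 fibril organization genes lie below 0, Adamts2 lies at -5.20 and Lox at -3.24, and the fitted value of Mmp9, which has at most 2 reads in a JAG1 library, is no bound.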

How the data were processed

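Total RNA was extracted with Trizol and QuantSeq 3' libraries were made, 3 per group. The authors deposited, for each library, raw read counts per gene symbol, which were used, and log2 values of normalized read counts, which were not. The submitters' processing notes name Bowtie2, bedtools, edgeR, GRCm38 and mm10; the annotation and the strand setting are not given in the sources used here. Of 23282 symbols, 22059 matched a RefSeq symbol (GRCm38.p6) and 1072 a synonym, with all 44 collagen symbols matched. In R 4.3.3 with edgeR 4.0.16, filterByExpr (minimum count 10) left 11712 genes, TMM factors were applied and the groups were compared by the quasi-likelihood test without covariates. Adjustment over all tested genes was by Benjamini and Hochberg (threshold 0.05), and standard errors were derived from the F statistic. The test was checked on simulated data in which far fewer genes changed than were called here and all genes shared the same spread. Alternatives were library size alone, upper-quartile factors, DESeq2 1.42.0, limma-voom (limma 3.58.1), no filter, a mean of at least 10 counts, fold limits of 1.5 and 2, a replicate block and leaving out each library.

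The members and the lists of collagen processing genes and of markers were chosen with earlier results of these data known, the lists from general knowledge. All tested chains are named. Promoter sequences are from RefSeq, and 16 of the 19 tested chains had an entry. Partner ratios were compared by exact two-sided permutation tests. Intervals are at 95%.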

Additional observations from a re-analysis of the deposited data

How the results depend on the processing

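Of the 19 tested chains, 7 were higher and 10 lower under library size alone, upper-quartile factors, DESeq2, limma-voom, a mean of at least 10 counts and the replicate block, as in the main comparison. Without the filter 7 were higher and 11 lower, the added chain being Col9a3. A fold limit moved the counts most: with at least 1.5-fold 4 chains were higher and 8 lower, and with at least 2-fold 3 were higher and 7 lower. For the processing genes a limit of 2-fold left 1 higher and 15 lower. With each library left out in turn, 6 to 7 chains were higher and 10 to 11 lower, and 8 to 12 processing genes were higher and 22 to 25 lower. Col4a1 was no longer past the threshold without control replicate 2 or without JAG1 replicate 1. The direction turned for genes that were not called: the log2 fold change of Col5a1 ran from -0.0802 to 0.065, the latter without JAG1 replicate 3, that of Serpinh1 from -0.0472 to 0.0202, above 0 without control replicate 1 or JAG1 replicate 2, and that of Pcolce from -0.0513 to 0.00035, the latter without JAG1 replicate 3. In the pairing check the deviations of same-numbered libraries correlated at 0.148, 0.0614 and 0.119 over 11712 genes, so the numbers were not taken as pairs, although each library correlated best with its own number, which is a hint from the data and not the design. The replicate block called 3380 genes higher and 3331 lower, against 3211 and 3247 without it. Low depth limits the 25 untested chains and Col6a2 and Col11a1 among those tested.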
